A study of Mus musculus with 6 samples.

Results

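The brush border is the carpet of microvilli on the luminal face of the absorptive enterocyte. The 9 genes described here encode enzymes that finish digestion at that surface, the transporter that takes up the resulting small peptides, and proteins that build or mark the differentiated cell: Alpi, Anpep, Dpp4, Slc15a1, Mep1a, Enpep, Vil1, Krt20 and Ada. Their accessible regions were taken as every consensus ATAC-seq peak that the authors' annotation assigns to one of these genes at no more than 50 kb from the annotated transcription start site (TSS). This gave 82 peaks of 156733, for 9 of 31309 gene names in the annotation. Slc15a1 had 15 of them, Ada 14, Anpep and Krt20 13 each, Vil1 12, Mep1a 6, Enpep 5, Alpi 3 and Dpp4 1. A further 14 peaks assigned to these genes lie beyond 50 kb and are not described, apart from the nearest of them. The outermost peak kept, at 49.5 kb from the Slc15a1 TSS, had a mean of 1.27 CPM (counts scaled to the size of each library), and the nearest one left out, at 51.7 kb from the same TSS, had 0.409 CPM.

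Accessibility was measured by ATAC-seq in small-intestinal organoids of C57BL/6JRj mice, which are cultures of epithelium that contain dividing stem cells beside the differentiated cells they give rise to. Untreated cultures from young mice (2 to 3 months) and aged mice (20 to 22 months) gave 3 libraries each, and both ages were kept in culture for 3 to 5 weeks and passaged weekly. Replicate 1 of each age was harvested at passage 4, replicate 2 at passage 3 and replicate 3 at passage 2. Whether the 3 libraries of an age stem from different animals is not said in the labels, and the p-values therefore reflect the spread between the libraries, which may be technical. The cells had been in culture for weeks when they were harvested, so the measurements are of cultured epithelium and not of tissue.

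Digestion of protein ends on the microvilli. Membrane peptidases trim oligopeptides to amino acids, dipeptides and tripeptides, and the proton-coupled transporter encoded by Slc15a1 (PEPT1) carries the dipeptides and tripeptides into the cell. In the intestine these genes are switched on as cells leave the crypt and move onto the villus. HNF4, HNF1, CDX and GATA factors are the best known regulators of that programme. An ATAC-seq peak over such a gene shows where the Tn5 transposase can reach the DNA, which is related to but is not a measure of transcription. In a bulk library, a lower share of cells with a site open and fewer insertions per cell cannot be told apart.

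Total counts in peaks ranged from 7278161 to 25901670 in the young libraries and from 21687816 to 26093521 in the aged, with young replicate 1 the shallowest. The 82 peaks took 0.0723% to 0.0789% of each library. The labelled tissue was checked against promoter peaks of marker genes. Of 6 epithelial markers, 5 had a promoter peak, summing to 256 to 301 CPM in the young and 280 to 290 CPM in the aged libraries. The enterocyte markers Apoa1, Apoa4, Fabp1, Fabp2 and Rbp2, none of them in the gene set, all had one, summing to 31.1 to 35.5 CPM in the young and 33.2 to 41.5 CPM in the aged, with a median of 4.14 CPM per gene. All 5 stem cell markers had one as well, summing to 147 to 162 CPM and 149 to 168 CPM. Promoter peaks were found for 3 of 6 immune markers (9.59 to 11.5 CPM in sum over all libraries, a median of 0.483 CPM per gene) and for none of the defining genes Ptprc, Cd3e and Itgam. The summed peaks of 3 of 4 tuft cell markers were at 10.8 to 13.5 CPM in the young and 13.7 to 16.8 CPM in the aged libraries, and the 1 endothelial marker of 3 with a peak was at 2.69 to 3.71 CPM and 1.86 to 2.22 CPM. The summed promoter peaks of 3 of 5 goblet cell markers were at 8.76 to 9.72 CPM in the young and 9.18 to 10.3 CPM in the aged libraries, and those of 3 of 4 Paneth cell markers at 14.4 to 16.2 CPM and 15.1 to 16.9 CPM. All 4 enteroendocrine markers had one, at 13.8 to 16.9 CPM in sum in the young and 12.0 to 16.2 CPM in the aged. Of 5 stromal markers 2 had one, at 18.9 to 23.6 CPM and 21.6 to 25.9 CPM in sum (a median of 11.2 CPM per gene), and Col1a2, Col3a1 and Dcn had none. The part of these shifts in the results below was not tested.

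To show the sequence next to the starts of these genes, 120 bases of RefSeq sequence (GRCm38.p6) that end just before the annotated start are printed 5′ to 3′ on the coding strand for 4 of the 9 genes. All 9 genes matched a RefSeq entry. The stretches shown are Slc15a1 at chr14:121505255-121505374, Alpi at chr1:87101607-87101726, Krt20 at chr11:99438154-99438273 and Dpp4 at chr2:62412232-62412351, all on the minus strand. The Slc15a1 and Alpi stretches lie inside the promoter peak, the Krt20 stretch runs past the upstream end of its peak, and the Dpp4 stretch lies just upstream of its peak. Slc15a1 is shown because its promoter peak had the smallest p of the 8 promoter peaks, and the other three because they hold matches close to the start. Capitals mark exact matches to the HNF4, CDX, GATA or TATA letters given below.
Slc15a1: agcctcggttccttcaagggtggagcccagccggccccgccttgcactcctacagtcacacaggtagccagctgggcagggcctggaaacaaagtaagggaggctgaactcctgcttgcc
Alpi: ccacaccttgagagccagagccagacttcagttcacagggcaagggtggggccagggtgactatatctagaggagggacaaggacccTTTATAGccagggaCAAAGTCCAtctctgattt
Krt20: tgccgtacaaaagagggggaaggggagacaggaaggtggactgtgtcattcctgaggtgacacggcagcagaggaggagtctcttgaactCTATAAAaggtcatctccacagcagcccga
Dpp4: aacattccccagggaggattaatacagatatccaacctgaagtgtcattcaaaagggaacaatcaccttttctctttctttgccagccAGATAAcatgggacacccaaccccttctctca

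The letters were searched on both strands of windows from 250 bases before to 50 after the start, in the 9 genes and in all 32851 RefSeq promoters. The HNF4 letters CAAAGTCCA were present in Alpi, at positions -19 to -11 from the start, and in 0.475% of all promoters. The CDX letters TTTATNG were present in Alpi, Dpp4, Krt20 and Mep1a, that is in 4 of 9 windows against 10.9% of all promoters. In Alpi, Dpp4 and Krt20 they overlap the TATA letters TATAAA, which also occur in Enpep and in 13.6% of all promoters. The GATA letters AGATAA were present in Dpp4, at -32 to -27, in Krt20, at -223 to -218, and in 11.2% of all promoters. None of the 9 windows held the AP-1 letters TGANTCA (7.81% of promoters), the KLF letters CCACACCC (3.56%) or the HNF1 palindrome (0.00913%). The Slc15a1 window held none of the 7 motifs. A match describes letters and does not show binding.

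No accessible region of these genes passed the test between aged and young organoids. Of the 82 peaks, 76 had enough counts to be tested, and 0 were called at an adjusted p under 0.05 by edgeR's quasi-likelihood F test, where 1.13% of all 132055 tested peaks were called (0.619% higher and 0.51% lower in aged). DESeq2 also called 0, against 0.734% of all peaks it adjusted. At an unadjusted p under 0.05, edgeR found 7 member peaks, 5 with higher counts in aged (4.9% of all tested peaks) and 2 with lower (4.81%). Together they are 9.21% of the 76, against 9.71% of all tested peaks. DESeq2 found 3, against 5.55%. With the replicate number as a block, edgeR still called 0, where 2.67% of all tested peaks were called, and found 14 at an unadjusted p under 0.05, against 13.1% of all tested peaks. The log2 fold changes of aged over young ran from -0.61 to 0.75, with 38 above and 38 below 0. Their median was 0.001, against -0.01 over all tested peaks, and the median of their sizes without sign was 0.15, against 0.17.

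Most of these peaks were measured closely enough to bound a change. The median member peak had 6.89 CPM over the 6 libraries, compared with 2.31 CPM for all tested peaks. The 95% interval of the fold change lay within 2-fold in either direction for 69 of the 76, and within 1.5-fold for 42. The 7 peaks whose interval reached 2-fold had at most 6.78 CPM. In 9 tested peaks every aged library lay above every young one, and in 4 every aged library lay below. That is 17.1% of the 76, against 14.7% of all tested peaks (7.66% above and 7.09% below).

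**Figure D1:**
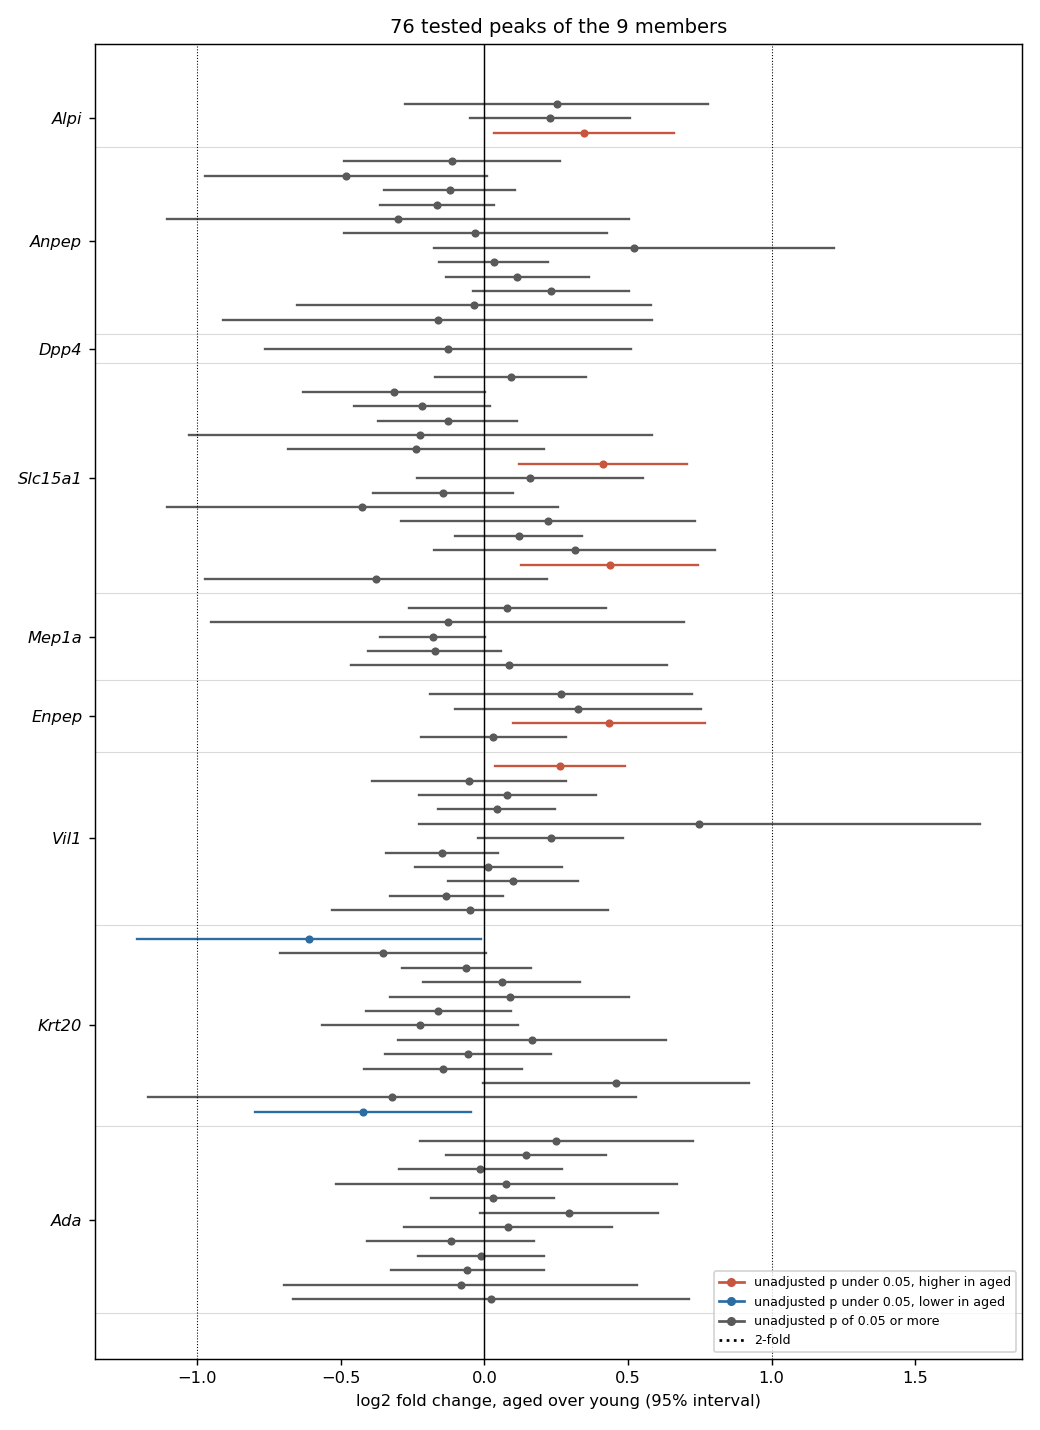
Log2 fold change of aged over young with its 95% interval (x axis) for each of the 76 tested peaks, grouped by gene and ordered from upstream to downstream within a gene. Colour marks an unadjusted p under 0.05, dotted lines mark 2-fold, and 7 peaks are coloured, 2 each at Slc15a1 and Krt20 and 1 each at Alpi, Enpep and Vil1.

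The regions fell into 35 intronic, 26 intergenic, 7 exonic, 7 promoter-TSS and 7 transcription-termination (TTS) peaks in the authors' classes. By RefSeq gene spans, 39 lay in their own gene, 19 in another gene and 24 in none. Positions below are those of the peak centre in kb from the RefSeq start, negative upstream, because the TSS used in the deposited annotation is an internal one for some of these genes. The deposited distance of the Ada promoter peak, for example, is 19.3 kb. The peak over the RefSeq promoter of Vil1 is assigned to Mir26b, at 14.6 kb, and that of Dpp4 to Gm13565, at 29.5 kb, so neither is among the 82. They were added after the data had been seen, which gives a promoter peak for 8 of the 9 genes. No peak covers the RefSeq promoter of Anpep, although its peak at 5.69 kb is in the authors' promoter-TSS class.

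Promoter accessibility differed widely between the genes. It is given per kb of peak, so the order depends on the length of the called peaks, from 147 bp at Krt20 to 1168 bp at Alpi. Vil1 was highest at 67.7 CPM per kb, averaged over the 6 libraries, with Mep1a at 65.3. The library ranges of these first 2 overlapped. Enpep followed at 36.4 and Dpp4 at 29.5 CPM per kb, each with a range apart from its neighbours. Krt20 (18.2 CPM per kb), Slc15a1 (12.4), Alpi (9.77) and Ada (9.41) came last, and the range of each overlapped that of the next. Against the 15602 tested peaks within 1 kb of a deposited TSS, Vil1 lay above 92.9% of them, Slc15a1 above 38.9% and Ada above 31.9%.

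**Figure D2:**
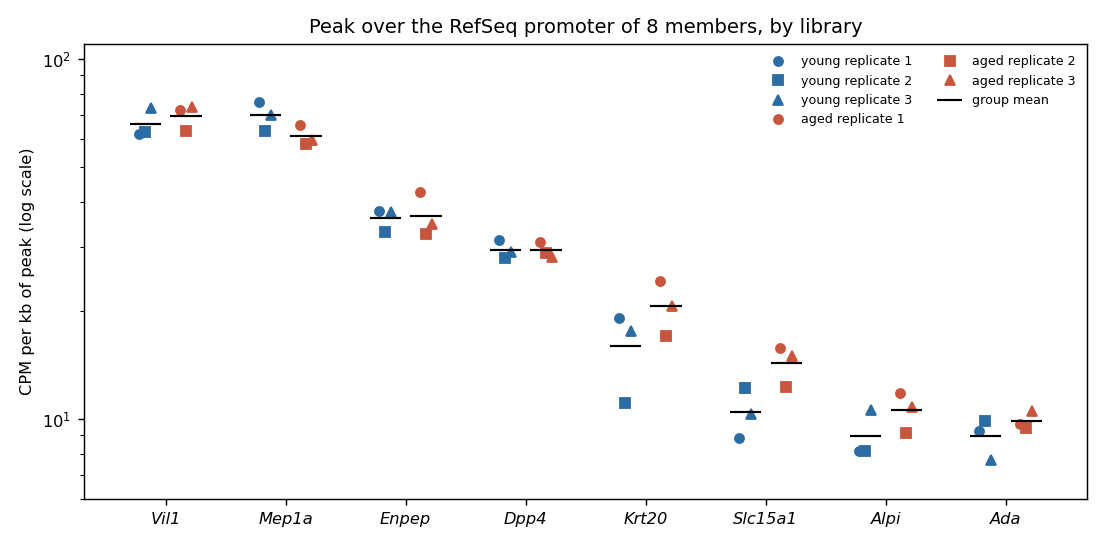
CPM per kb of peak (y axis, log scale) of the peak over the RefSeq promoter of 8 genes (x axis), with 1 point per library, blue for young and red for aged, the shape giving the replicate number and the bar the group mean. The aged points lie above the young ones without overlap for Slc15a1 alone, with young replicate 2 and aged replicate 2 nearly level.

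None of the 8 promoter peaks was called, 1 had an unadjusted p under 0.05, and 7 of 8 log2 fold changes were above 0, with a median of 0.11. By the deposited annotation, 5 members have a peak within 1 kb of the TSS (Alpi, Krt20, Slc15a1, Mep1a and Enpep), with a median of 0.23. That median was 0.13 without young replicate 2, 0.15 without aged replicate 1, 0.37 without young replicate 3 and 0.38 after thinning all libraries to the shallowest. The median over all 15602 such peaks was 0.03, 1.44% of them were called and 10.5% had an unadjusted p under 0.05. DESeq2 called 0 of the 8 and found 1 at an unadjusted p under 0.05, against 0.734% and 5.55% of all peaks it adjusted, promoter or not. Groups overlapped at 7 of the 8 promoters. Over all tested peaks, promoter or not, 14.7% had groups that did not overlap.

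Slc15a1, the peptide transporter, had the smallest p of the gene set at its promoter and in a distal intron. The promoter peak (chr14:121504838-121505597) was at 6.74, 9.27 and 7.86 CPM in young replicates 1 to 3 and at 12.0, 9.33 and 11.3 CPM in the aged ones. All 3 aged libraries were above all 3 young, by a wide margin for replicates 1 and 3 and by almost nothing between the replicates 2. The means were 7.95 ± 1.27 and 10.9 ± 1.39 CPM (SD, n = 3). The log2 fold change was 0.41 (SE 0.14), which did not pass the test (adjusted p = 0.237, and 0.0724 with the replicate number as a block). Without young replicate 1, the shallowest library and the lowest value, the log2 fold change was 0.34, and without young replicate 2 it was 0.55 (adjusted p = 0.0799).

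The intron 21 peak of Slc15a1 (intron 21 of 22, chr14:121464385-121464795, at 40.7 kb) was at 6.32, 6.43 and 5.33 CPM in the young and 8.41, 7.35 and 8.58 CPM in the aged libraries. The groups again did not overlap, with a log2 fold change of 0.44 (SE 0.15, adjusted p = 0.233). The Slc15a1 peak with the most counts lies in intron 17 (chr14:121471479-121472055, at 33.5 kb). It was at 45.1, 33.4 and 43.7 CPM in the young and 49.3, 37.0 and 45.0 CPM in the aged libraries, with a log2 fold change of 0.12 (SE 0.11, adjusted p = 0.800). Its libraries lined up by replicate number, replicate 2 being lowest at both ages. The other 12 Slc15a1 peaks had log2 fold changes from -0.42 to 0.31, and 4 of them lie upstream in the neighbouring gene Dock9, at 7.20 to 17.3 CPM.

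The 3 promoter peaks of other genes that followed the Slc15a1 promoter most closely over the 6 libraries were those assigned to 1810059C17Rik (Pearson r of log2 CPM 0.996), Tmem37 (0.995) and Gm28707 (0.994). They were picked as the highest of 15601, of which 336 had an r over 0.9, and with 6 libraries that share depth and replicate number the values are descriptive. The log2 fold changes of the 3 peaks were 0.12, 0.23 and 0.20, and none was called.

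No peak of the 4 peptidase genes Anpep, Enpep, Mep1a and Dpp4 passed the test. Anpep encodes aminopeptidase N, which removes neutral amino acids from the N terminus of peptides. Its strongest peak (chr7:79844048-79844859, intron 1 of 2, at 3.76 kb) was at 29.9, 27.1 and 29.3 CPM in the young and 29.5, 30.4 and 28.0 CPM in the aged libraries. The ages overlapped, at means of 28.8 ± 1.46 and 29.3 ± 1.22 CPM (SD, n = 3), with a log2 fold change of 0.03 (95% interval -0.16 to 0.22). Human ANPEP is known to use a far upstream promoter in myeloid cells and one next to the coding exons in epithelium. In these organoids, peaks of 29.0 and 13.8 CPM on average lay at 3.76 kb and 5.69 kb inside the gene and a peak of 28.1 CPM at -20.7 kb, and the RefSeq start itself had none. The peak at 5.69 kb, of the promoter-TSS class, had a log2 fold change of 0.11 (adjusted p = 0.841). The peak of Anpep with the smallest p, in an exon of the neighbouring gene Ap3s2 at -32.1 kb (chr7:79880182-79880352), was at 2.95, 2.27 and 2.43 CPM in the young and 1.32, 1.57 and 2.33 CPM in the aged libraries. There aged replicate 3 reached into the young range, and the log2 fold change was -0.48 (SE 0.24, adjusted p = 0.527). It was -0.77 without that library and -0.32 without aged replicate 1.

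Enpep encodes glutamyl aminopeptidase (aminopeptidase A), which removes acidic residues. At its promoter (chr3:129332600-129332989) the young libraries were at 14.7, 12.9 and 14.7 CPM and the aged at 16.6, 12.7 and 13.6 CPM, a log2 fold change of 0.03 (95% interval -0.22 to 0.28). Its strongest other peak, which also had its smallest p, lies in intergenic sequence at -4.92 kb (chr3:129337279-129338048). It was at 4.21, 4.65 and 4.22 CPM in the young and 5.41, 5.91 and 6.48 CPM in the aged libraries, without overlap, a log2 fold change of 0.43 (SE 0.16, adjusted p = 0.310). All 4 tested peaks that the annotation assigns to Enpep had log2 fold changes above 0. The other 5 tested peaks in the RefSeq span of Enpep, which the annotation assigns to RP24-140K12.2, were all below 0, from -0.70 to -0.08.

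Mep1a encodes the alpha subunit of meprin, a metalloprotease that is membrane-bound or shed. The peak over its promoter (chr17:43502651-43502899) was at 19.0, 15.7 and 17.4 CPM in the young and 16.4, 14.4 and 14.8 CPM in the aged libraries, a log2 fold change of -0.17 (SE 0.11, adjusted p = 0.689). The stronger peak upstream of it, at -1.64 kb (chr17:43503774-43505050), overlaps the 5′ end of the RefSeq span of the gene. It was at 38.2, 33.4 and 38.5 CPM in the young and 31.7, 32.6 and 32.3 CPM in the aged libraries. Every aged library was below every young one, with means of 36.7 ± 2.86 and 32.2 ± 0.479 CPM (SD, n = 3), and the log2 fold change was -0.18 (SE 0.09, adjusted p = 0.523). Of its 5 tested peaks, 3 had log2 fold changes below 0.

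Dpp4 encodes dipeptidyl peptidase 4, which releases dipeptides after proline or alanine. Its promoter peak (chr2:62411172-62412202) was at 32.4, 28.9 and 30.0 CPM in the young and 31.9, 29.9 and 29.1 CPM in the aged libraries. The groups overlapped and the means, 30.5 ± 1.79 and 30.3 ± 1.46 CPM (SD, n = 3), were nearly equal, with a log2 fold change of 0.002 (95% interval -0.18 to 0.19). The only peak the annotation assigns to Dpp4 within 50 kb (chr2:62334933-62335248, at 77.1 kb in the gene) was weak, at 0.98, 0.95 and 1.11 CPM in the young and 0.86, 1.16 and 0.78 CPM in the aged libraries. The RefSeq span of the gene holds 14 further peaks assigned to other genes. The strongest after the promoter, at 21.2 kb (chr2:62390554-62391559), was at 13.2 to 15.8 CPM in the young and 15.2 to 16.1 CPM in the aged libraries.

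The RefSeq spans and promoters of the 9 genes hold 60 peaks in all, of which 21 are assigned to other genes, 14 at Dpp4, 6 at Enpep and 1 at Vil1. Of the 54 tested, edgeR called 0 and found 5 at an unadjusted p under 0.05, and DESeq2 called 0 and found 2. Over all tested peaks, edgeR called 1.13% and found 9.71%, and DESeq2 called 0.734% and found 5.55%. None of those 5 was among the 20 tested peaks assigned to other genes, whose median log2 fold change was -0.08.

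Alpi encodes intestinal alkaline phosphatase, which dephosphorylates luminal substrates that include bacterial lipopolysaccharide. All 3 of its peaks had log2 fold changes above 0, from 0.23 to 0.35. The promoter peak (chr1:87101527-87102694), which covers the HNF4 and CDX letters printed above, was at 9.54, 9.53 and 12.3 CPM in the young and 13.8, 10.7 and 12.6 CPM in the aged libraries. The ages overlapped through young replicate 3, and the log2 fold change was 0.23 (SE 0.14, adjusted p = 0.646). It was 0.13 without young replicate 2, 0.15 without aged replicate 1, 0.38 without young replicate 3 and 0.43 after thinning. The peak in exon 11 (chr1:87098579-87099022, at 2.81 kb) was at 4.77, 6.35 and 5.70 CPM in the young and 6.96, 7.67 and 7.42 CPM in the aged libraries, without overlap, a log2 fold change of 0.35 (SE 0.15, adjusted p = 0.438).

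Ada encodes adenosine deaminase, the purine salvage enzyme that converts adenosine to inosine. Its 12 tested peaks stayed between log2 fold changes of -0.12 and 0.29. The peak over the RefSeq start (chr2:163749600-163750657, exon 1 of 12) was at 9.82, 10.4 and 8.12 CPM in the young and 10.2, 9.98 and 11.1 CPM in the aged libraries, a log2 fold change of 0.15 (SE 0.14, adjusted p = 0.810). The strongest peak assigned to Ada lies in an intron of the downstream neighbour Pkig (chr2:163718610-163719560, at 31.2 kb) and was at 23.0, 22.0 and 18.5 CPM in the young and 21.6, 22.2 and 18.7 CPM in the aged libraries. There the young and aged libraries interleaved, at a log2 fold change of -0.01 (95% interval -0.23 to 0.21). The smallest p among the Ada peaks belonged to a TTS-class peak in Pkig at 24.7 kb (chr2:163725251-163725820), at 5.33, 7.26 and 6.01 CPM in the young and 7.23, 7.81 and 8.42 CPM in the aged libraries, which overlapped by the margin between young replicate 2 and aged replicate 1 (adjusted p = 0.553).

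Vil1 encodes villin, which bundles and severs the actin filaments in the core of the microvillus. Its promoter peak (chr1:74408360-74409499) had the most counts of the 8 promoters, at 70.7, 71.4 and 83.0 CPM in the young and 82.3, 71.9 and 83.9 CPM in the aged libraries. The means were 75.0 ± 6.91 and 79.4 ± 6.55 CPM (SD, n = 3) and the groups overlapped, with a log2 fold change of 0.08 (95% interval -0.09 to 0.24). The first intron of Vil1 holds the peak with its smallest p (chr1:74411896-74412201, at 2.66 kb), at 20.8, 15.4 and 20.0 CPM in the young and 23.3, 21.6 and 21.4 CPM in the aged libraries. The aged libraries were above the young ones there, with young replicate 2 the lowest by far, at a log2 fold change of 0.26 (SE 0.11, adjusted p = 0.403), and of 0.12 without that library. Beyond the 3′ end of the gene, a peak in the neighbour Usp37 (chr1:74435670-74436118, at 26.5 kb) was the strongest of the 12, at 55.3, 36.2 and 40.9 CPM in the young and 49.9, 38.7 and 42.0 CPM in the aged libraries. Its log2 fold change was 0.01 (95% interval -0.24 to 0.27), and replicate 1 was the highest at both ages.

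Krt20 encodes keratin 20, an intermediate filament protein of differentiated intestinal epithelium. Its promoter and most of its other peaks pointed in opposite directions, none past the test. At the promoter (chr11:99438099-99438245, covering the overlapping CDX and TATA letters) the young libraries were at 2.81, 1.63 and 2.58 CPM and the aged at 3.55, 2.50 and 3.03 CPM. Aged replicate 2 lay within the young range, and the log2 fold change was 0.46 (SE 0.23, adjusted p = 0.522) on counts of 20 to 78 per library. Without young replicate 2 it was 0.18, and without young replicate 3 it was 0.63. Of the 13 Krt20 peaks, 9 had log2 fold changes below 0. The exon 6 peak (chr11:99430670-99431218, at 7.21 kb) was at 6.18, 4.73 and 4.96 CPM in the young and 4.82, 3.46 and 3.22 CPM in the aged libraries, overlapping through aged replicate 1, with a log2 fold change of -0.42 (SE 0.18, adjusted p = 0.428). A weak peak at -26.8 kb (chr11:99464943-99465025) was at 1.12, 1.25 and 1.69 CPM in the young and 0.73, 1.02 and 0.97 CPM in the aged libraries, without overlap, at a log2 fold change of -0.61 (SE 0.29, adjusted p = 0.500). The strongest Krt20 peak, at -23.7 kb (chr11:99461591-99462076), was at 20.1, 16.1 and 19.3 CPM in the young and 17.2, 17.8 and 17.4 CPM in the aged libraries, overlapping, at a log2 fold change of -0.06.

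**Figure D3:**
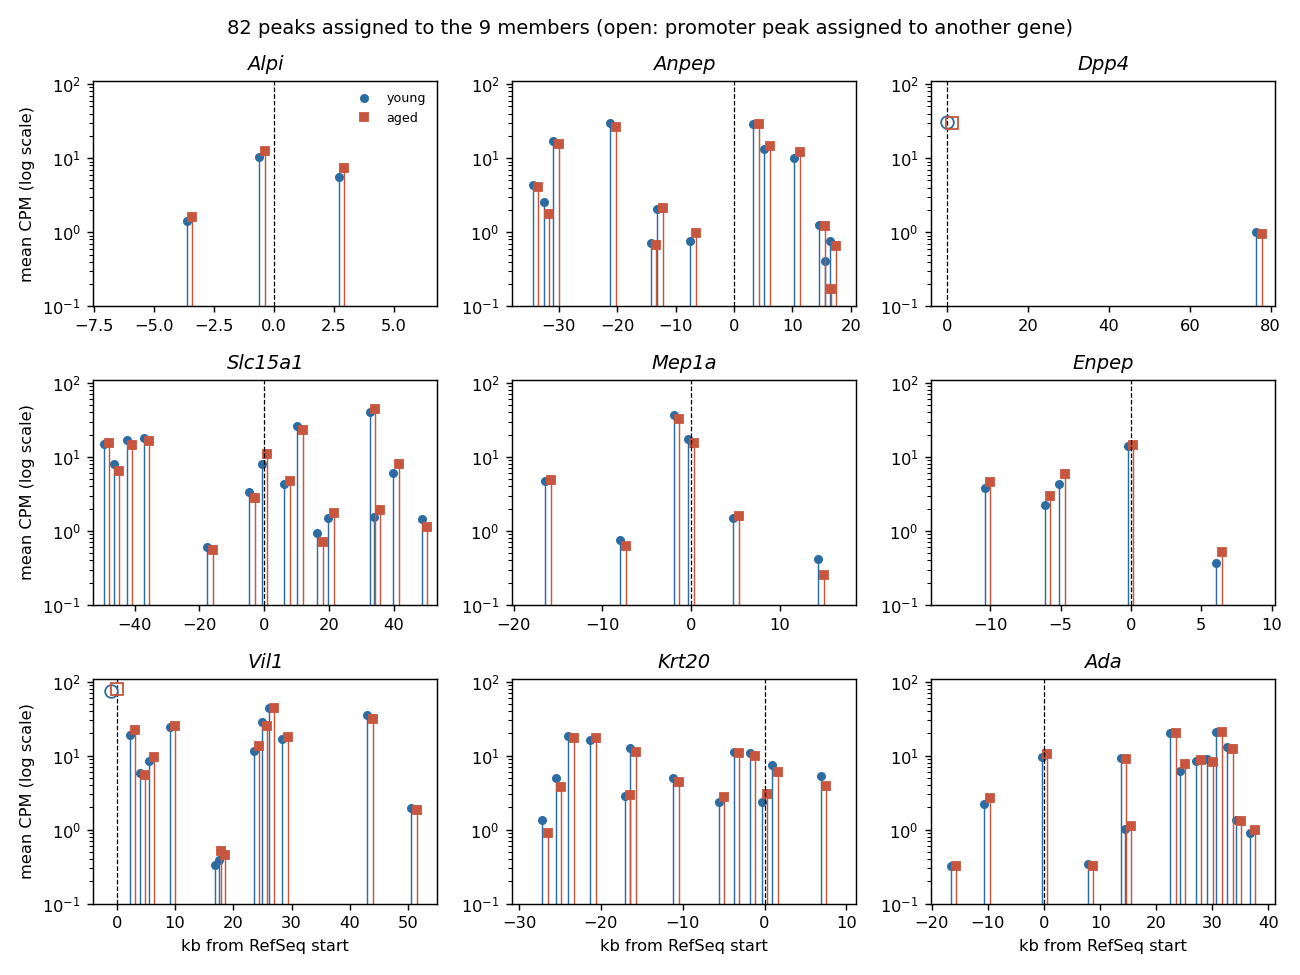
Mean CPM (y axis, log scale) in young (blue circles) and aged (red squares) libraries of the 82 peaks against the distance of the peak centre from the RefSeq start (x axis, kb, negative upstream), 1 panel per gene, with the points of a peak drawn slightly left for young and right for aged. Open symbols are the promoter peaks of Vil1 and Dpp4, which the annotation assigns to other genes, and a promoter peak lies at 0 in every panel except that of Anpep.

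Summing all peaks of a gene within 50 kb gives a value that does not depend on which peak is picked, but it follows the deposited assignment. The Dpp4 sum is its 1 weak assigned peak and leaves out the promoter peak, as does the Vil1 sum. The sums of Slc15a1, Anpep, Ada and Vil1 include peaks that lie in the neighbouring genes Dock9, Ap3s2, Pkig and Usp37. None of the 9 sums was called by edgeR, where 1.39% of 29256 genes were, and 2 of 9 had an unadjusted p under 0.05 against 11% of genes. DESeq2 called none of the 9 either and found 2. Its shares over all genes are not given here, so the 2 cannot be read as more or fewer than usual. Alpi summed to 17.4, 18.8 and 21.8 CPM in the young and 24.6, 21.7 and 23.9 CPM in the aged libraries. Young replicate 3 just reached into the aged range, and the log2 fold change was 0.26 (SE 0.10, adjusted p = 0.320). Mep1a summed to 71.3, 61.9 and 70.5 CPM in the young and 60.6, 59.5 and 60.3 CPM in the aged libraries. Its aged sums were all below the young ones, at a log2 fold change of -0.17 (SE 0.07, adjusted p = 0.346). The sums of the others had log2 fold changes of 0.18 for Enpep, 0.02 for Ada, 0.003 for Vil1, -0.003 for Slc15a1, -0.04 for Anpep, -0.12 for Krt20 and -0.14 for Dpp4. The peaks assigned to Slc15a1 summed to 168 ± 20.6 CPM in the young and 168 ± 15.4 CPM in the aged libraries (SD, n = 3). Within 10 kb the log2 fold change of the Slc15a1 sum was 0.21 (adjusted p = 0.572).

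Some of these peaks differed between replicate numbers in the same way at both ages. A test of the replicate number beside age, chosen after seeing the data, called 6 of the 76 peaks (7.90%), against 1.29% of all tested peaks, and 16 had an unadjusted p under 0.05, against 12.7%. The 76 peaks had a median of 6.89 CPM against 2.31 CPM over all tested peaks. The shares were not matched for counts, so they do not show that these genes vary more than others. These 6 peaks lay at Krt20 (2 peaks), Slc15a1, Vil1, Enpep and Ada. The clearest was in intron 1 of Krt20 (chr11:99436678-99437093, at 1.27 kb). Its values were 6.88, 5.18 and 10.6 CPM in young replicates 1 to 3 and 6.77, 3.42 and 7.80 CPM in the aged ones. Replicate 3 was highest and replicate 2 lowest at both ages, with a 2.14-fold span between the replicate means (adjusted p = 2.7e-05). It was the only one of the 6 with a span of 2-fold or more.

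The intron 17 peak of Slc15a1 spanned 1.34-fold between replicate means (adjusted p = 0.0096) and the Usp37 peak next to Vil1 1.41-fold (adjusted p = 0.0034). In both, replicate 2 was lowest at both ages. The Enpep peak at -10.2 kb (chr3:129342807-129343116) was at 3.09, 2.76 and 5.48 CPM in the young and 5.05, 3.37 and 5.36 CPM in the aged libraries, a 1.77-fold span (adjusted p = 0.028). A second Krt20 peak, at -21.0 kb (chr11:99458949-99459276), spanned 1.40-fold, again with replicate 2 lowest (adjusted p = 0.033). In the Pkig exon peak assigned to Ada (chr2:163722612-163722826, at 27.5 kb), replicate 3 was lowest, at 5.59 CPM in the young and 7.06 CPM in the aged library, a 1.57-fold span (adjusted p = 0.020). Over all 76 peaks the median span was 1.21-fold, against 1.26-fold over all tested peaks. The count of 6 became 2 without young replicate 2 and 2 without young replicate 3, and lay between 4 and 6 without any other library.

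A linear trend over passage 2 to 4 beside age called 0 of the 76 peaks by edgeR, where 0.00303% of all tested peaks were called, and found 5 at an unadjusted p under 0.05, against 5.27% (smallest adjusted p = 0.803). In 5 of the 6 peaks that differed between replicate numbers, replicate 2, the middle passage, was lowest at both ages. Passage, replicate number and the culture code in the titles go together in every library and cannot be told apart.

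**Figure D4:**
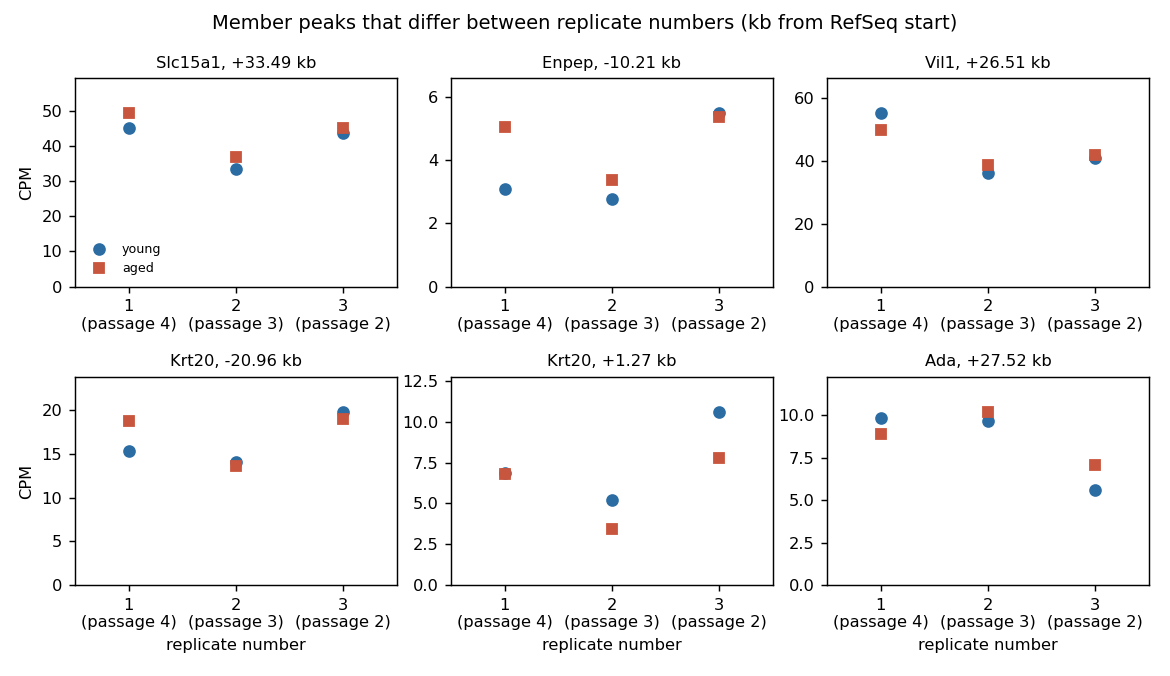
CPM (y axis, from 0) by replicate number with its passage (x axis) in young (blue circles) and aged (red squares) libraries, for the 6 peaks that differed between replicate numbers at an adjusted p under 0.05. The lowest replicate is the same at both ages in all 6 panels, and the highest is the same in all but the Ada panel.

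The wider brush border programme, described from a list of 44 other genes for hydrolases, transporters, microvillus structure and nucleoside handling, held 260 tested peaks within 50 kb at 42 genes. Of these, edgeR called 4 (1.54%, against the 1.13% of all tested peaks), 2 in each direction, and the median log2 fold change was 0.03. It found 19 of the 260 at an unadjusted p under 0.05, against 9.71% of all tested peaks. DESeq2 called 4 and found 13, against 0.734% and 5.55% of all peaks it adjusted. At promoters, 31 tested peaks of 28 genes gave 0 called by edgeR and 3 at an unadjusted p under 0.05, with a median of 0.11. Over all promoter peaks 1.44% were called and 10.5% found, with a median of 0.03. DESeq2 called 0 of the 31 and found 2, against 0.734% and 5.55% of all peaks it adjusted, promoter or not. With the replicate number as a block, edgeR called 7 of the 260, where 2.67% of all tested peaks were called. Without young replicate 3 the 4 called by edgeR became 2.

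Of the 4 called by edgeR, 3 are at the 13 genes of microvillus structure, which have 100 tested peaks (3.00% called, against 1.13% of all tested peaks). At an unadjusted p under 0.05 edgeR found 12 of the 100, against 9.71%. The hydrolases had 1 of 73 called, and the transporters (66 tested peaks) and nucleoside genes (21) had 0. These counts are too small to set the lists apart. The 2 called peaks that rose are at Espn and Pls1. Espn encodes espin, an actin bundler. Its peak in exon 2 of 5 (chr4:152128239-152128445) was at 4.49, 3.93 and 4.38 CPM in the young and 7.41, 8.32 and 7.42 CPM in the aged libraries. It rose by 0.87 on the log2 scale (SE 0.16, adjusted p = 0.0014, higher in 3 of 3 same-numbered pairs). Pls1 encodes plastin 1, a further bundler of that core. Its peak in intron 1 (chr9:95811897-95812081) was at 1.97, 2.35 and 1.85 CPM in the young and 4.09, 4.39 and 3.80 CPM in the aged libraries, a rise of 0.96 (SE 0.20, adjusted p = 0.0060, higher in 3 of 3 pairs). Without young replicate 3 the adjusted p of the Pls1 peak was 0.0461, close to the threshold. Villin, the third bundler, had no called peak.

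Both called peaks that fell depended on single libraries. The peak nearest to Ezr (ezrin, which ties actin to the membrane) lies in an intron of Sytl3 (chr17:6731657-6732025). It was at 7.02, 6.54 and 8.07 CPM in the young and 4.73, 4.07 and 3.65 CPM in the aged libraries and fell by 0.80 on the log2 scale (SE 0.17, adjusted p = 0.0057, lower in aged in every pair). It narrowly failed without young replicate 3 (adjusted p = 0.05001), and its adjusted p was 0.0946 without aged replicate 3 and 0.251 after thinning all libraries to the shallowest. The peak assigned to Treh (trehalase), at 10.9 kb from its TSS (chr9:44672305-44672406), was at 2.53, 0.946 and 1.85 CPM in the young and 0.500, 0.462 and 0.505 CPM in the aged libraries. It fell by 1.68 (SE 0.36, adjusted p = 0.0079), and its adjusted p was 0.0552 without young replicate 1 and 0.0662 without young replicate 3.

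The promoter peaks of the wider list with the smallest p were those of the peptidase-like gene Naaladl1, the sodium-proton exchanger Slc9a3 and Espn. Naaladl1 was at 4.49, 6.54 and 6.80 CPM in the young and 10.2, 6.38 and 8.89 CPM in the aged libraries, with aged replicate 2 inside the young range, a log2 fold change of 0.46 (adjusted p = 0.290). Slc9a3, whose exchanger helps maintain the proton gradient that drives PEPT1, was at 20.2, 17.3 and 18.0 CPM in the young and 20.7, 23.3 and 22.1 CPM in the aged libraries. Its groups did not overlap, at a log2 fold change of 0.27 (adjusted p = 0.322). The Espn promoter had a log2 fold change of 0.22 (adjusted p = 0.508).

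Among 14 regulators of brush border genes, 98 tested peaks gave 0 called by edgeR and 3 at an unadjusted p under 0.05 (0 and 1 by DESeq2), with a median log2 fold change of -0.02. Over all tested peaks these shares were 1.13% and 9.71% by edgeR, and 0.734% and 5.55% by DESeq2. Their 12 promoter peaks gave 0 called as well and 0 at an unadjusted p under 0.05, by edgeR and by DESeq2, against 1.44% and 10.5% of all promoter peaks by edgeR. The 3 with the smallest p were Klf4 (0.20, adjusted p = 0.552), Cdx1 (0.16, adjusted p = 0.721) and Klf5 (0.09, adjusted p = 0.794). With the replicate number as a block no regulator peak was called.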

How the data were processed

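ATAC-seq was measured in 6 libraries of small-intestinal organoids, 3 young and 3 aged, described by the labels. The deposited table holds raw counts per consensus peak, which, per the file headers, the authors made with featureCounts and did not normalise. A deposited annotation gives the nearest gene, the distance to its TSS and a class. Per the submitters' processing notes, GRCm38, BWA 0.7.17-r1188, MACS2 2.2.7.1 and featureCounts 2.0.1 were used. The settings for duplicates, the Tn5 offset and the counting of reads or fragments were not given in the sources used here. Start positions of both files differ by 1 bp, and 1-based positions are printed. Without molecular identifiers, intervals cover the spread between libraries and not amplification of the same molecules.

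The ages were compared with the robust quasi-likelihood F test of edgeR 4.0.16 under R 4.3.3, with TMM factors and filterByExpr at a minimum count of 10, over all peaks. This kept 132055 peaks and left out 24678. P-values were adjusted over all tested peaks by Benjamini-Hochberg and called under 0.05. CPM values use TMM-scaled library sizes and were computed here from the deposited counts. Locus sums were fitted in the same way over all genes. The scripts were tested on simulated data. Gene spans, starts and promoter sequences came from RefSeq tables of GRCm38.p6.

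Libraries of equal number have 1 passage and, in the titles, 1 culture code in common, and on that ground the replicate numbers count as pairs. The descriptions instead give the same code for all libraries, which is that of replicate 1 in the titles. Within pairs, deviations from the mean of each age correlated by 0.074, 0.127 and 0.144, and at most by 0.003 between other numbers. Such deviations cancel out within an age, so positive values within pairs force negative ones on average between other numbers. The contrast is therefore no test of the pairing. The fit without a block is the main one.

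The 9 genes and all lists were chosen with earlier results of these data known. Named in full for each gene were the promoter peak, the other peak with most counts, the peak with the smallest p and any called peak. For the other lists these were called peaks and the 3 promoter peaks with the smallest p, and for Slc15a1 the 3 most correlated promoter peaks. The rule for promoters by RefSeq start, peaks over RefSeq spans and the replicate-number test were added after seeing the data. Alternatives were RLE factors, library totals, no filter, DESeq2 1.42.0, thinning to the shallowest library, the replicate block, passage as a covariate, a 10 kb window, the promoter peak nearest to the TSS and leaving out each library. Single genes of the marker lists are not reported here.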

Additional observations from a re-analysis of the deposited data

How the results depend on the processing

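The count of 0 called peaks at the 9 genes, and of 0 called locus sums, held under every alternative run, including the replicate block and each left-out library, and the smallest adjusted p of a named peak in any of them was 0.0724. The count over all peaks moved to 883 with DESeq2, 681 after thinning and 3523 with the replicate block, and ranged from 830 to 1902 over the left-out libraries (830 without aged replicate 3). The block gave 7 called peaks at the other brush border genes in place of 4, and changed no other call. Leaving out libraries gave 2 to 4 there, and 2 to 6 for the replicate-number test in place of 6. Of 285 values of the 22 named peaks, 20 changed sign, at 6 peaks that lay near 0. The Dpp4 promoter was at -0.0086 with library totals, -0.0047 after thinning, -0.0055 with the block, -0.0036 with passage and -0.0345 to 0.0393 over the left-out libraries. The Vil1 peak in Usp37 was at -0.013 with DESeq2, the strongest Ada peak at 0.0447 after thinning, and the Enpep promoter at -0.0024 with the block. Over the left-out libraries these ran -0.11 to 0.178, -0.105 to 0.0617 and -0.0875 to 0.109 in that order, and the strongest Anpep and Slc15a1 peaks from -0.0143 to 0.0646 and -0.0181 to 0.226. The cause was not tested. At this depth 6 of the 82 peaks had too few counts to test. Another 7 had intervals that reach 2-fold, 6 of them at 0.426 to 1.13 CPM and the Krt20 intron 1 peak at 6.78 CPM.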
